A study of Mus musculus with 2 samples.

Results

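Wnt signalling genes were followed in RNA from mouse satellite cells, the stem cells of skeletal muscle, with and without a deletion of Cipc. The gene set comprised Wnt ligands, frizzled receptors, secreted frizzled-related proteins (sFRPs), Dickkopf proteins and R-spondins, chosen by symbol, plus 12 named receptors, feedback genes and transcription factors. Of 53 annotated mouse genes that these symbols take, 33 had a row among the 16190 genes of the count table. The cells came from the tibialis anterior of C57BL/6 mice labelled Cipc-scko, with 1 library (titled Cipc-/-), or Cipc-flox/flox, also with 1 library (titled Cipc+/+) and used as the control. The title of the series speaks of a deletion specific to satellite cells, in connection with mdx mice, a model of muscular dystrophy, but the sample labels do not say that these cells carry the mdx mutation. The alleles behind the name Cipc-scko, the Cre driver, the number, age and sex of the animals and any pooling are not stated in those labels. Cipc encodes a repressor of the circadian factors CLOCK and BMAL1.

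Wnt proteins are lipid-modified ligands that bind frizzled receptors together with LRP5 or LRP6. In the canonical branch this stabilises beta-catenin, which joins TCF/LEF factors on target genes, while other branches act through planar polarity proteins or calcium. R-spondins, through LGR receptors, keep frizzleds at the surface by removing the ubiquitin ligases ZNRF3 and RNF43. In mouse muscle, WNT7A acting through FZD7 is known to expand the satellite stem cell pool, WNT4 from myofibres is known to hold satellite cells quiescent, and canonical signalling is known to act on myoblast differentiation.

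With 1 library per genotype there was no replicate check and no p-value was computed. Every difference below describes these libraries, and every 95% interval covers counting error only. Ratios are log2 of Cipc scko over Cipc flox/flox on CPM, counts scaled to library size. A difference was called where it reached 2-fold with a counting interval that left out equality. Less RNA per cell and fewer cells of a type cannot be told apart in bulk RNA.

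The libraries held 16830168 counts (Cipc scko) and 16145870 counts (Cipc flox/flox). Cipc itself had 594 counts in Cipc scko against 1907 in Cipc flox/flox, with a log2 ratio of -1.61 (-1.74 to -1.47), in the direction of the label. The libraries also differed in the sex-linked genes Xist (4 counts in Cipc scko, 3898 in Cipc flox/flox) and Ddx3y (511 and 0). Of 9 satellite cell markers with a row, Pax7 had 998 counts in Cipc scko against 43 in Cipc flox/flox, 3 were called higher and 1 lower. All 12 markers of differentiating muscle were called higher, with summed levels of 21046 CPM in Cipc scko against 53.9 CPM in Cipc flox/flox, and Myh7 and Myh8 at 0 in Cipc flox/flox. Markers within several other cell type lists went opposite ways. The 8 fibro-adipogenic markers with a row summed to 3410 CPM in Cipc scko, against 3031 CPM in Cipc flox/flox. Past the filter, 2 of 7 were called higher (Col1a1, with 7196 and 1957 counts, and Col3a1) and 4 lower (Pdgfra, with 11 and 147 counts, Col1a2, with 277 and 13597, Dcn and Gsn). The 5 smooth muscle and pericyte markers summed to 12872 CPM in Cipc scko, against 627 CPM in Cipc flox/flox, of which Acta2 made up 12432 and 513 CPM. Of these markers 4 were called higher and 1, Cspg4, lower (7 and 491 counts). The 5 endothelial markers summed to 8.22 and 8.45 CPM, with Kdr higher in Cipc scko (112 and 2 counts) and Flt1 lower (0 and 128). Summed levels in Cipc scko and Cipc flox/flox were 6.29 and 47.7 CPM for 6 macrophage markers, 1.56 and 20.8 CPM for 4 Schwann cell markers, and 29.1 and 75.7 CPM for 2 tenocyte markers. At 0 counts were also Pi16, Tek and Mrc1 in Cipc scko, and Pecam1 and Abcc9 in Cipc flox/flox. Ptprc, Adgre1, Sox10, S100b, Myh11, Rgs5, Kcnj8, Lum, Dpt, Tie1, Emcn, Cldn5, Tnmd and Calcr had no row. With 1 library per genotype, sex, muscle differentiation and other cell types cannot be told apart from genotype here. Their part in the Wnt gene differences was not tested.

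Of the 33 Wnt genes with a row, 28 reached 1 CPM in a library and 20 counts over both, the filter used for all genes. Of these 28, 12 were called higher in Cipc scko, 10 were called lower and 6 were not called. The called share was 78.6%, beside 37.2% of all 12874 genes past the filter. It was 37.7% for the 10404 of these within the range of mean CPM of the Wnt genes (0.798 to 100.7). That range takes in most genes, so it is no close match for level. By direction, 42.9% of the Wnt genes were higher, beside 21.2% of all genes, and 35.7% were lower, beside 15.9%. However, 12 of the 28 (42.9%) reached 1 CPM in 1 library only, 6 in each, and so entered through the library where they were higher, beside 14.2% of all genes past the filter, of which 93.4% were called. Of the 16 Wnt genes that reached it in both, 10 were called (62.5%), beside 27.8% of all genes that did so. Without the filter, 14 of 33 were higher and 10 lower, with 34.6% of all genes called. The median log2 ratio was 0.23, beside 0.01 for all genes, and the median size of the ratio irrespective of sign was 2.91, beside 0.69. Whether counting used strand is not stated, and Wnt5a, Wnt7b, Wnt11, Fzd5, Fzd6, Sfrp2, Axin2, Notum, Tcf7l1 and Lef1 share exon bases with an annotated gene on the other strand, up to 29.4% of the exon bases of Notum, so reads of such pairs cannot be told apart. The 3 of these partners that had a row held at most 3 counts in a library.

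**Figure D1:**
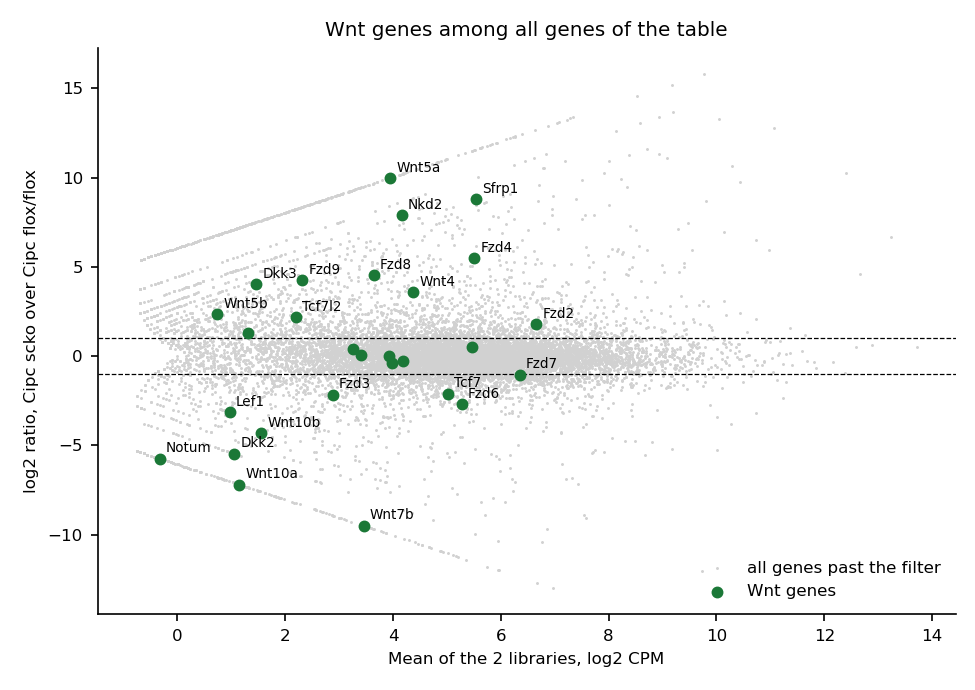
Each point is a gene past the filter, with the mean CPM of the libraries on the x axis (log2) and the log2 ratio (scko over flox/flox) on the y axis. Green points are the 28 Wnt genes, which lie on both sides of the dashed 2-fold lines (12 called higher, 10 lower), and genes at 0 in a library form the outer diagonal lines, where the plotted ratio is set by the prior count.

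Different Wnt ligands led in each library. Of 19 Wnt genes, 9 had a row and 7 passed the filter, of which 3 were higher in Cipc scko (Wnt5a, Wnt4 and Wnt5b), 3 were lower (Wnt7b, Wnt10a and Wnt10b) and 1, Wnt9a, was not called. Wnt5a (chromosome 14, 28504750 to 28527448), the prototype noncanonical ligand, had 493 counts in Cipc scko against 0 in Cipc flox/flox, at least 173-fold higher. Wnt7b (chromosome 15, 85535437 to 85582473), known for canonical signalling in lung and brain vessels, had 0 counts in Cipc scko against 371 in Cipc flox/flox, at least 117-fold lower. These 2 genes were each seen in 1 library only. Such genes were not rare: of all 16190 genes, the Cipc scko library had 0 counts for 939 and the Cipc flox/flox library for 1532. Each library had 0 counts for 4 of the 33 Wnt genes.

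Wnt4 (chromosome 4, 137277489 to 137299726) had 613 counts in Cipc scko against 53 in Cipc flox/flox, with a log2 ratio of 3.60 (3.20 to 4.04) or 12.1-fold. Wnt5b, a close relative of Wnt5a, had 45 and 9 counts in these libraries (log2 2.33, 1.35 to 3.62). Wnt4 was thus present in both libraries, at very different levels, while Wnt5b was low in both. Wnt10b, which restrains adipogenesis and whose loss in mouse myoblasts favours fat cell formation, had 4 counts in Cipc scko against 95 in Cipc flox/flox (log2 -4.34, -6.40 to -3.09). Its paralog Wnt10a had 0 and 75 counts, at least 23.7-fold lower in Cipc scko. Wnt9a differed little, with 174 counts in Cipc scko against 141 in Cipc flox/flox (log2 0.38, 0.05 to 0.71).

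Below the filter, Wnt6 had 7 counts in Cipc scko against 0 in Cipc flox/flox, and Wnt11 had 0 and 4. The other 10 Wnt genes that the symbols take (Wnt1, Wnt2, Wnt2b, Wnt3, Wnt3a, Wnt7a, Wnt8a, Wnt8b, Wnt9b and Wnt16) had no row in the table, so their levels were not analysed here. They include Wnt7a, the ligand best known in satellite cells.

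Levels can be set side by side between genes only per length, for which the deposited FPKM values (reads scaled by gene length and library depth) were used. Summed over the ligands the level was 13.3 FPKM in Cipc scko against 11.05 FPKM in Cipc flox/flox, 1.21-fold higher. That ratio depended on the scale, being 1.54-fold with CPM per kilobase of annotated exons and 1.88-fold with CPM not divided by length. Wnt4 took 65.1% of that sum in Cipc scko (counting interval 63.3 to 66.9) and 7.09% in Cipc flox/flox (5.40 to 9.07). Wnt7b took 47.1% in Cipc flox/flox (44.5 to 49.7) and was at 0 in Cipc scko. In Cipc scko the order was Wnt4, Wnt5a, Wnt9a and Wnt5b, with no overlap between the intervals of these neighbours. In Cipc flox/flox Wnt10b, Wnt10a and Wnt9a followed Wnt7b, at 17.4%, 14.8% and 12.4%, and the intervals of neighbours in that order overlapped. Wnt9a held a like share in both libraries (12.2% and 12.4%). With counts divided by annotated exon length, Wnt4 took 51.7% in Cipc scko and Wnt7b 39.2% in Cipc flox/flox, both still first, and Wnt9a, at 21.9%, came second in Cipc flox/flox.

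**Figure D2:**
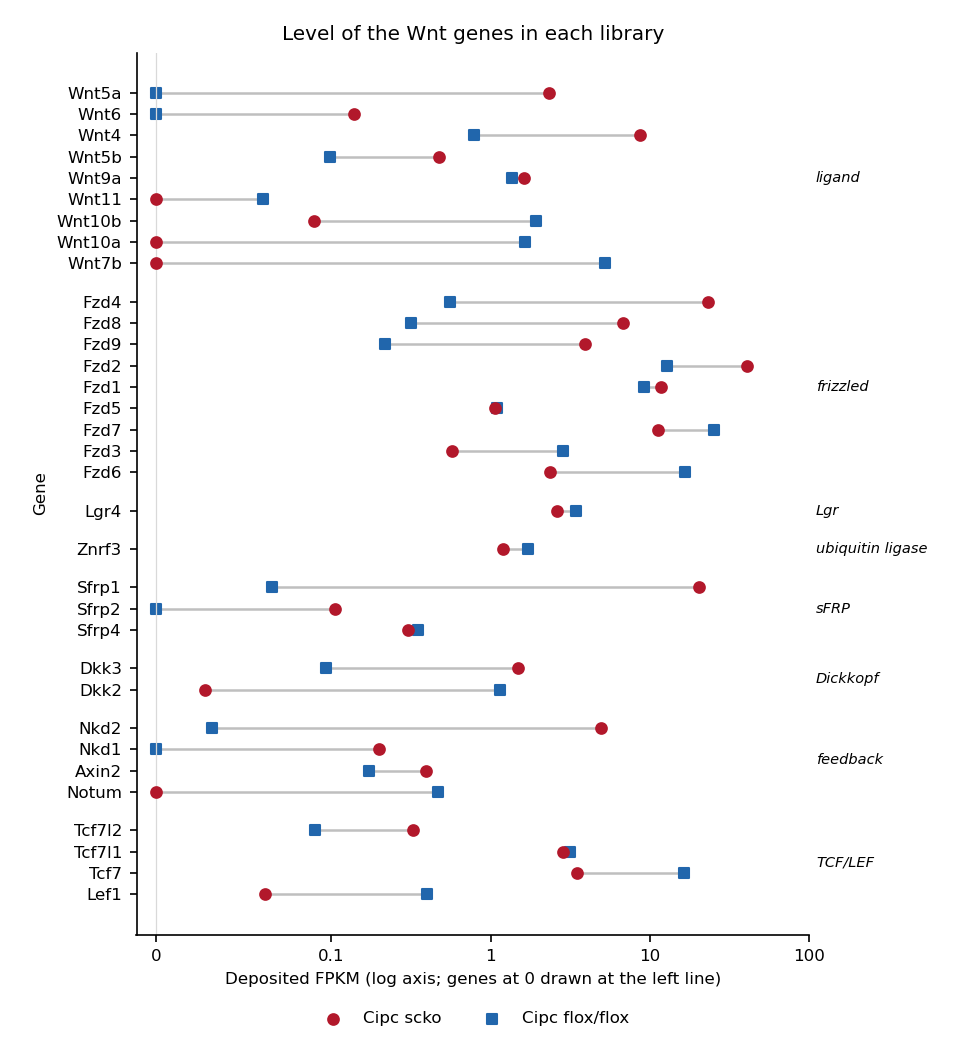
Deposited FPKM on a log axis for the 33 Wnt genes with a row, in Cipc scko (red circles) and Cipc flox/flox (blue squares), grouped by role, with genes at 0 drawn on the left line. Wnt5a, Wnt6, Sfrp2 and Nkd1 are at 0 in Cipc flox/flox, and Wnt7b, Wnt10a, Wnt11 and Notum are at 0 in Cipc scko.

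Promoters were searched for the core letters bound by TCF/LEF factors, CTTTGAT or CTTTGAA on either strand, in RefSeq windows of 250 bases before to 50 after a transcript start, of which a gene can have several (GRCm38.p6). Of the 33 genes, 21 had a window (29 windows in all) and 2 of these, Wnt5b and Wnt11, held a match (9.52%), beside 9.88% of all 27025 genes with a window. Only Wnt5b was also called, so its site is shown, within the 120 bases before 1 of its 3 starts, which lies 94961 bases inside the gene as annotated (chr6:119449387-119449506, minus strand), with the match in capitals.
Wnt5b: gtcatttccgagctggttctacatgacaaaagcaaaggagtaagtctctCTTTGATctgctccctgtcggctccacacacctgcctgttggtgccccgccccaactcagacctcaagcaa
The match is a description of these letters, and the share among the Wnt genes was close to that of all genes.

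All frizzled genes, which encode the surface receptors for Wnt proteins, had a row and passed the filter, except Fzd10, which had no row. Of 9 frizzleds past the filter, 4 were higher in Cipc scko (Fzd4, Fzd8, Fzd9 and Fzd2), 3 were lower (Fzd6, Fzd3 and Fzd7) and 2 were not called (Fzd1 and Fzd5). Fzd4 (chromosome 7, 89404355 to 89413134), also the receptor for the non-Wnt ligand Norrin in retinal vessels, had 1432 counts in Cipc scko against 33 in Cipc flox/flox, with a log2 ratio of 5.49 (5.02 to 6.06) or 45.1-fold. Fzd8 had 384 and 17 counts (log2 4.53, 3.88 to 5.37). Fzd9 had 152 and 8 counts (log2 4.24, 3.31 to 5.56). All 3 were low in the Cipc flox/flox library, at 2 CPM or less.

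Fzd2 (chromosome 11, 102604396 to 102608058), a receptor linked to WNT5A signalling, had 2511 counts in Cipc scko against 762 in Cipc flox/flox (log2 1.80, 1.68 to 1.92). Fzd7, the WNT7A receptor of mouse satellite cells, went the other way, with 854 and 1857 counts (log2 -1.04, -1.16 to -0.93), just past the 2-fold limit. Fzd1, Fzd2 and Fzd7 form 1 closely related subgroup, so it held 1 gene higher, 1 lower and Fzd1, at 828 and 619 counts (log2 0.50, 0.34 to 0.65), not called. Fzd3 and Fzd6, which overlap in planar polarity in the mouse embryo, were both lower. Fzd6 had 168 counts in Cipc scko against 1131 in Cipc flox/flox (log2 -2.67, -2.92 to -2.44), and Fzd3 had 43 and 204 (log2 -2.16, -2.68 to -1.69). Fzd5 was nearly equal at 175 and 174 counts (log2 0.08, -0.23 to 0.40).

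The leading receptor differed between the libraries. Of the summed frizzled level of 101 FPKM in Cipc scko, Fzd2 took 40.1% (39.2 to 41.1) and Fzd4 22.8% (21.8 to 23.7). Of 69.0 FPKM in Cipc flox/flox, Fzd7 took 36.8% (35.7 to 37.9) and Fzd6 24.0% (22.9 to 25.1). Fzd1 and Fzd7, next in Cipc scko at 11.5% and 11.03%, had overlapping intervals. With counts divided by annotated exon length instead of FPKM, Fzd4 took 14.4% in Cipc scko, close to Fzd1 (13.3%) and Fzd7 (12.7%). Its clear second place thus depended on the scale.

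**Figure D3:**
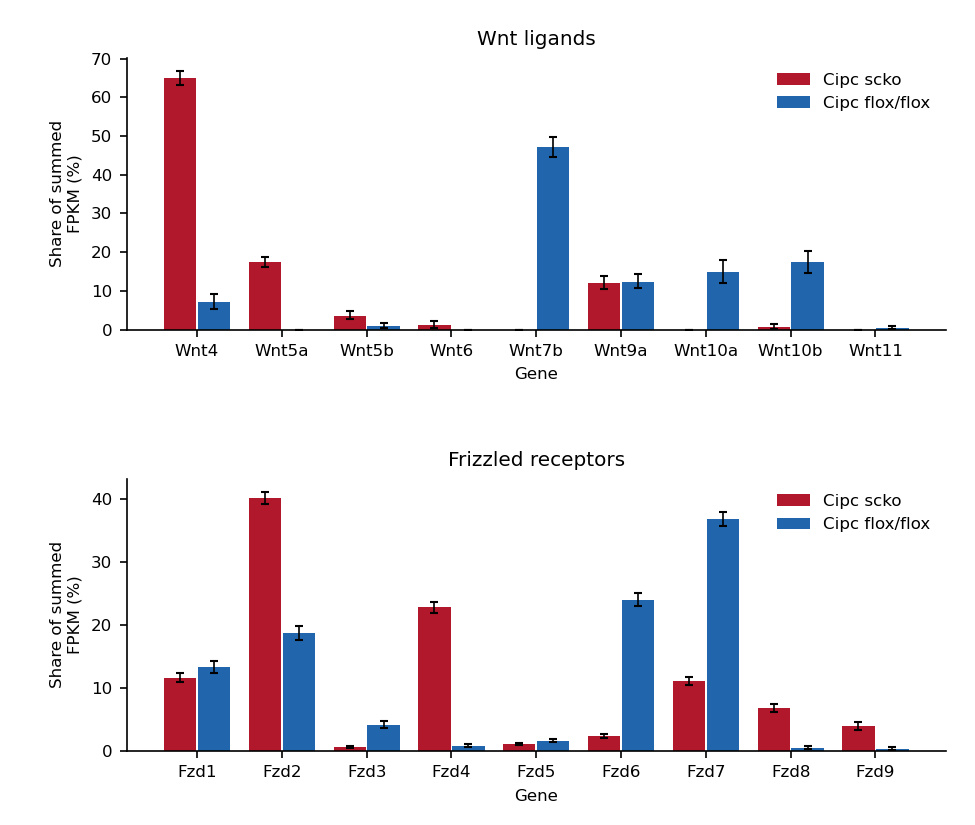
Bars give the share of each gene in the summed FPKM of its family within a library, for 9 Wnt ligands (top) and 9 frizzleds (bottom), in Cipc scko (red) and Cipc flox/flox (blue), with 95% counting intervals. Wnt4 and Fzd2 are the tallest bars in Cipc scko, at 65.1% and 40.1%, and Wnt7b and Fzd7 in Cipc flox/flox, at 47.1% and 36.8%.

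Within the chosen gene set, 2 of the genes that set how much frizzled stays at the surface were measured, and neither was called. None of the 4 R-spondin genes had a row, nor did Lgr5 and Rnf43. Lgr4, a receptor for R-spondins, and Znrf3, the ligase that removes frizzleds, had a row. Lgr4 had 268 counts in Cipc scko against 336 in Cipc flox/flox (log2 -0.25, -0.49 to -0.01), and Znrf3 had 220 and 300 (log2 -0.37, -0.63 to -0.12). Both had fewer counts in Cipc scko, at under 2-fold. Lgr6, a relative of Lgr4 outside the chosen set, was called lower, with 64 and 412 counts (log2 -2.60).

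Among the secreted inhibitors, Sfrp1 had the largest log2 ratio of any Wnt gene counted in both libraries. Its counting interval overlapped that of Nkd2 (6.38 to 11.29), so their order is not settled. Sfrp1 (chromosome 8, 23411502 to 23449632), which binds Wnt proteins outside the cell, had 1488 counts in Cipc scko against 3 in Cipc flox/flox, with a log2 ratio of 8.80 (7.48 to 11.31). At 20.2 FPKM in Cipc scko, against 0.0425 FPKM in Cipc flox/flox, it stood per length above Wnt4, the leading ligand there (8.68 FPKM). Sfrp2 and Sfrp4 were under the filter, at 5 and 0 counts (Sfrp2) and 9 and 10 counts (Sfrp4) in Cipc scko and Cipc flox/flox, and Sfrp5 had no row.

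The Dickkopf genes split. Dkk3, a divergent member not known to block LRP6 as Dkk1 does, had 84 counts in Cipc scko against 5 in Cipc flox/flox (log2 4.01, 2.87 to 5.81). Dkk2, an LRP6 ligand, had 1 and 69 counts (log2 -5.47, -11.36 to -3.51). Dkk1 and Dkk4 had no row. Each library thus held mainly 1 Dickkopf transcript, Dkk3 in Cipc scko and Dkk2 in Cipc flox/flox.

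Feedback inhibitors, which canonical signalling is known to switch on, did not go 1 way. Nkd2 (chromosome 13, 73818534 to 73847631), a Dishevelled-binding inhibitor, had 573 counts in Cipc scko against 2 in Cipc flox/flox (log2 7.91, 6.38 to 11.29). Axin2, a scaffold of the beta-catenin destruction complex and a widely used readout of canonical signalling, was low in both, with 57 and 24 counts (log2 1.31, 0.61 to 2.08). Notum, the secreted enzyme that removes the lipid from Wnt proteins, had 0 counts in Cipc scko against 27 in Cipc flox/flox, at least 8.54-fold lower. Nkd1, the paralog of Nkd2, was under the filter at 15 and 0 counts. The Axin2 ratio was below 2-fold with FPKM and a pseudocount of 0.1 (0.86) or 1 (0.25).

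The nuclear partners of beta-catenin shifted in composition. Tcf7, encoding TCF1, had 197 counts in Cipc scko against 890 in Cipc flox/flox (log2 -2.10, -2.33 to -1.88). Lef1 had 6 and 60 counts (log2 -3.14, -4.75 to -2.04). Tcf7l2, encoding TCF4 and a marker of connective tissue fibroblasts in mouse muscle, was higher in Cipc scko, with 121 and 28 counts (log2 2.17, 1.58 to 2.84). Tcf7l1, known mainly as a repressor, was equal within counting error at 245 and 259 counts (log2 0.00, -0.26 to 0.25). Their summed level was 6.70 FPKM in Cipc scko against 20.1 FPKM in Cipc flox/flox, of which Tcf7 took 52.1% and 82.0%. The sum was thus 2.99-fold lower in Cipc scko. That ratio depended on the scale, being 2.59-fold with CPM per kilobase of annotated exons and 2.06-fold with CPM not divided by length. The Tcf7 shares were computed with FPKM only.

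**Figure D4:**
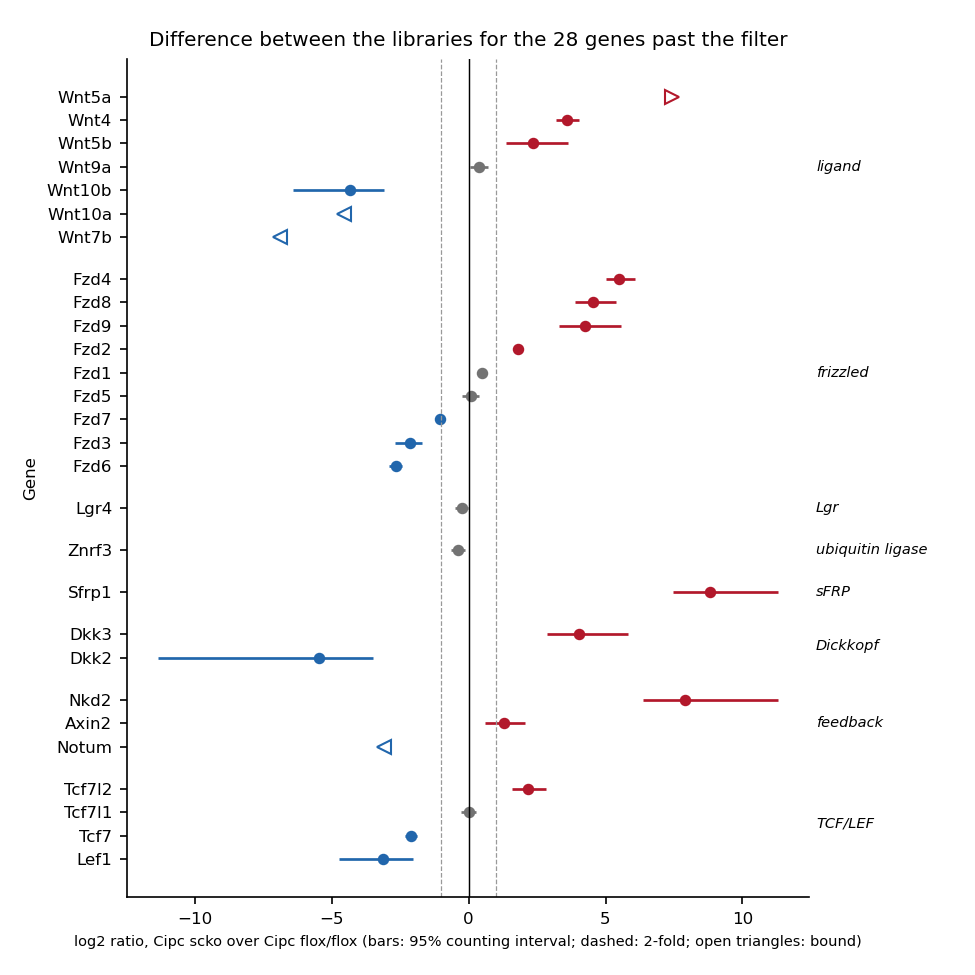
Points are log2 ratios (scko over flox/flox) for the 28 Wnt genes past the filter, with bars for the 95% counting interval, dashed lines at 2-fold, and colours for genes called higher (red), lower (blue) or not called (grey). Open triangles mark bounds for genes at 0 in a library, computed against a floor of 3 counts, with Wnt5a to the right and Wnt7b, Wnt10a and Notum to the left.

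By position, the 3 Wnt genes of chromosome 15 with a row (Wnt7b, Wnt10b and Fzd6) were all lower in Cipc scko. Among all 520 genes of that chromosome past the filter, 37.5% were called lower and 12.5% higher, with a median log2 ratio of -0.68. Over all chromosomes these shares were 15.9% lower and 21.2% higher. Without these 3 genes, 12 Wnt genes were higher and 7 lower, with a median of 0.50. Chromosome 7 leaned the other way, with 29.4% of its genes past the filter higher, 8.34% lower and a median of 0.40. Both Wnt genes past the filter there, Fzd4 and Dkk3, were higher, and the set without them was not computed. The part of chromosomal position in these differences was not tested.

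Outside the symbol rule, 87 further Wnt pathway genes were listed, of which 77 had a row and 69 passed the filter. Of these, 21 were higher in Cipc scko and 12 lower, so 47.8% were called beside 37.2% of all genes, and the median log2 ratio was 0.38. By class, both secretion genes, 4 of 5 extracellular modulators, 5 of 7 other targets and 6 of 10 planar polarity genes were called, as were 4 of 9 receptors, 8 of 22 cytoplasmic and 4 of 14 nuclear genes. The difference between these classes was not tested.

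Ligand secretion split between its best known genes. Porcn, the enzyme that attaches the lipid to Wnt proteins, had 668 counts in Cipc scko against 107 in Cipc flox/flox (log2 2.71, 2.42 to 3.03). Wls, the carrier that takes them to the membrane, had 2539 and 6542 (log2 -1.29, -1.36 to -1.22).

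The co-receptors Lrp5 and Lrp6 were not called (log2 0.67 and -0.06), and Ryk, an alternative Wnt receptor, lay just under the limit (0.98). The pseudokinase receptor Ptk7 had 5985 counts in Cipc scko against 343 in Cipc flox/flox (log2 4.20, 4.04 to 4.36). Adgra2 and Reck, which together form the co-receptor for WNT7A and WNT7B in brain vessels, were higher in Cipc scko (log2 2.91 and 1.94), where Wnt7b itself was at 0. Lgr6, a relative of Lgr4, was lower, with 64 and 412 counts (log2 -2.60). Ror1 and Ror2, receptors for WNT5A, were under the filter, at 14 and 4 counts (Ror1) and 0 and 4 counts (Ror2) in Cipc scko and Cipc flox/flox.

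Among extracellular modulators, the glypican Gpc4 had 1569 counts in Cipc scko against 0 in Cipc flox/flox, at least 551-fold higher. The Dickkopf receptor Kremen1 was also higher, at 7473 and 2909 counts (log2 1.44). The membrane inhibitor Apcdd1 had 12 and 257 counts (log2 -4.29), and Tpbg, another membrane inhibitor, 213 and 494 (log2 -1.14).

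Around beta-catenin and its destruction complex, the 4 genes Ctnnb1, Gsk3b, Apc and Axin1 were not called. Csnk1a1, which encodes another kinase of the complex, was called higher, with 5602 counts in Cipc scko against 2550 in Cipc flox/flox. Apc2 and the APC-binding Amer1 were called too, in opposite directions. Ctnnb1, encoding beta-catenin, had 7232 counts in Cipc scko against 8358 in Cipc flox/flox (log2 -0.13, -0.18 to -0.09). Gsk3b, encoding a kinase of beta-catenin, had 1753 and 1759 (log2 0.07, -0.02 to 0.17). The scaffolds Apc and Axin1 differed by 0.43 and -0.71, and neither was called. Larger differences fell on other cytoplasmic genes. Dact1, which binds Dishevelled, had 1634 and 23 counts (log2 6.20, 5.64 to 6.89). Its relative Dact3 and the APC-binding Amer1 were higher by 2.28 and 2.10, Cxxc5 and Csnk1a1 by 1.22 and 1.21, and Dvl3 by 1.05. Apc2 and Csnk1g1 were lower, at -2.77 and -1.15.

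In the nucleus the beta-catenin coactivators Bcl9 and Pygo1 were higher in Cipc scko (log2 2.53 and 5.73), as was the corepressor Tle4 (4.47). Tle5 (annotated as Aes), a short member of the same corepressor family, was lower (-1.09). Of the planar polarity and noncanonical genes, Daam2 had 0 counts in Cipc scko against 862 in Cipc flox/flox, at least 273-fold lower, and Celsr1 0 and 200, at least 63.2-fold lower. Its paralog Celsr2 had 49 and 0 counts, at least 17.2-fold higher. Rhou and Prickle1 were lower (-2.55 and -1.39) and Vangl2 higher (1.23). Thus Celsr1 and Celsr2 were each counted in 1 library only, as Wnt7b and Wnt5a were. Many other genes were too, with 939 of all 16190 at 0 in the Cipc scko library and 1532 at 0 in the Cipc flox/flox library.

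Of 15 other genes known as Wnt targets in various tissues, 10 had a row and 7 passed the filter, of which 4 were called higher and 1 lower (71.4% called, beside 37.2% of all genes). Tnfrsf19 had 171 counts in Cipc scko against 0 in Cipc flox/flox, at least 60.1-fold higher, and Ephb2 had 2369 and 42 (log2 5.88, 5.45 to 6.37). Tbx3 and Ephb3 were higher by 2.07 and 1.87, and Cd44 was lower (log2 -1.88). Myc and Ccnd1, the targets most often cited, were not called (log2 0.38 and -0.91).

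**Figure D5:**
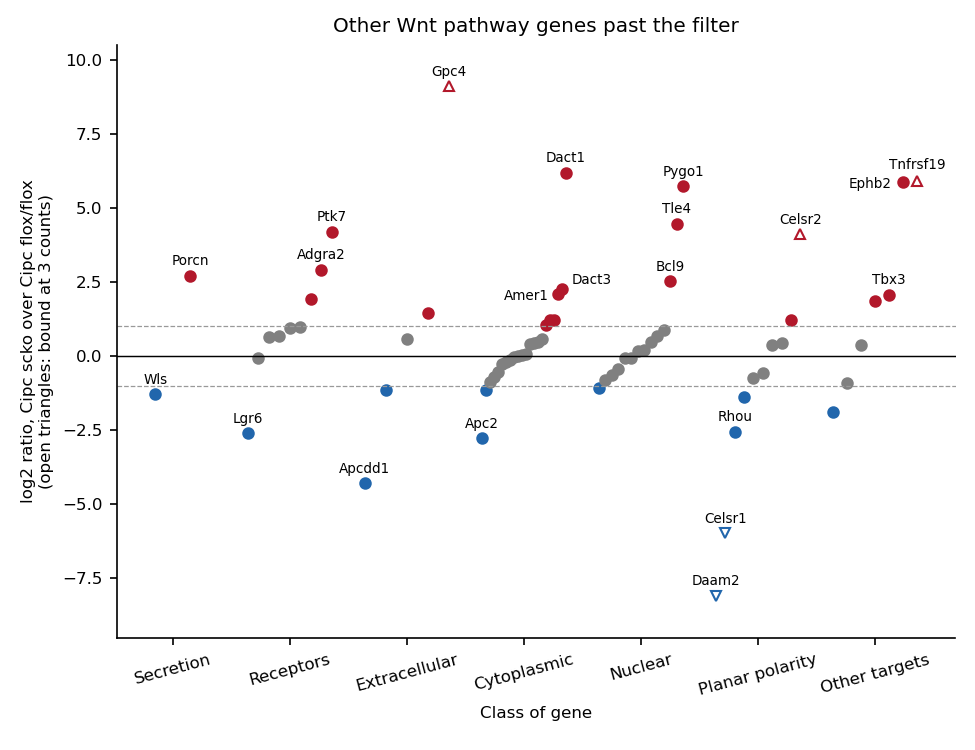
Log2 ratios (scko over flox/flox) for the 69 other Wnt pathway genes past the filter, by class, with red for called higher, blue for called lower, grey for not called, dashed lines at 2-fold and open triangles for bounds of genes at 0 in a library. Of 22 cytoplasmic genes 14 were not called, and Gpc4 and Daam2 have the largest bounds.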

How the data were processed

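The authors deposited 1 table of whole-number gene counts by Ensembl identifier and, for each library, a file of FPKM values, as the file headers say. HISAT2 2.0.4, StringTie 1.3.0, CASAVA and the build GRCm38 appear in the submitters' processing notes, with no role for each. The counting tool, annotation release or strand setting was not given in the sources used here. FPKM follow the counts: in all 13719 genes with counts in both, the FPKM ratio between the libraries lay within 1% of the ratio of counts divided by library totals. They are thus no separate measurement, and carry no TMM scaling.

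Symbols and positions came from GENCODE vM21 on GRCm38 (16116 of 16190 identifiers matched). Counts were scaled with TMM in edgeR 4.0.16 (R 4.3.3), with a prior count of 0.5. The filter asked for 1 CPM in either library and 20 counts over both. Intervals are exact Clopper-Pearson limits (95%) of how a gene's counts divide between the libraries. They hold counting error alone, and without molecular identifiers reads may repeat a molecule. A floor of 3 counts (0.187 CPM in Cipc scko, 0.177 CPM in Cipc flox/flox) gave bounds for genes at 0. The counting limits of the genes given as "at least" lie closer to equality than these bounds. Limits of FPKM shares are exact Poisson limits of the gene's own count. BLAST+ 2.17.0 found no near-identical copy (95% identity over 80% of the shorter transcript) of a Wnt gene within the table. Outside it, Wnt4 matched the short predicted miRNA gene Gm24303, so reads there could be shared. Wnt4 also matched other annotated genes outside the table over short stretches that missed these limits. Wnt11 matched the pseudogene Gm8398 over 364 bases. That match is the overlap on the other strand given above for Wnt11, and no copy elsewhere.

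The genes and lists were chosen with earlier results of these data known. All Wnt genes with a row are named. Of the pathway genes, a core set and all those called are named.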

Additional observations from a re-analysis of the deposited data

How the results depend on the processing

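No paired analysis was possible because each genotype has 1 library, and no library could be left out. Under 9 alternatives of scaling, filter, prior count and unit, no called ratio of a Wnt gene changed sign and 240 of 246 values kept their call, those under another filter being unable to differ. The other 6 fell below 2-fold, all with FPKM. With a pseudocount of 1 they were Wnt5b (0.42), Axin2 (0.25), Notum (-0.56), Tcf7l2 (0.30) and Lef1 (-0.43), and with 0.1 Axin2 (0.86), since a pseudocount pulls low genes toward equality. A CPM of at least 5 left 6 Wnt genes lower, against 10, because it admits fewer genes. The median of the Wnt genes lay between 0.06 and 0.50, against 0.23. The median of all genes shifted by -0.14 when libraries were scaled by totals, which left 50.8% of all calls higher instead of 57.1%, while 54.5% of the Wnt gene calls were higher under all 4 other scalings. With counts per annotated exon length Fzd2 took 46.4% in Cipc scko and Fzd7 38.9% in Cipc flox/flox, both still first, as were Wnt4 (51.7%) and Wnt7b (39.2%) among the ligands. The ligand alternative and the set without chromosome 15 were added after seeing the data. Depth limits Wnt6, Wnt11, Sfrp2, Sfrp4 and Nkd1, which had at most 19 counts over both libraries.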

Other observations

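Wnt6 and Wnt10a, 6193 bases apart on chromosome 1, were counted in opposite libraries. Wnt6 had 7 counts in Cipc scko against 0 in Cipc flox/flox, while Wnt10a had 0 and 75. Of the other Wnt genes lying as neighbours, Wnt10b (4 and 95 counts) and Wnt9a (174 and 141 counts) had a row, and Wnt1 and Wnt3a beside them did not.

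Tcf7l2, which marks connective tissue fibroblasts in mouse muscle, and the fibro-adipogenic marker Pdgfra differed in opposite directions. Tcf7l2 had 121 counts in Cipc scko against 28 in Cipc flox/flox, while Pdgfra had 11 and 147 and Dcn 1 and 142. Col3a1, from the same marker list, was higher in Cipc scko, with 34958 and 14379 counts.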
